A study of Mus musculus with 7 samples.

Results

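The genes described here encode the proteins of the cytosolic ribosome, the machine that translates messenger RNA outside the mitochondria. Members were the gene rows with a protein-coding mouse symbol of Rps or Rpl and a number, with at most a letter and a digit after it, together with Rplp0, Rplp1, Rplp2 and Rpsa. Pseudogene rows, among them those whose symbols carry -ps, and the Rps6k kinases were left out. This gave 83 members of 53801 gene rows, 32 of the small and 51 of the large ribosomal subunit. Messages were counted in mesenchymal stromal cells sorted from bone marrow, the connective tissue cells that support blood formation and give rise to bone and marrow fat. The cells came from C57BL/6 males in 2 groups, with injections into the peritoneum that began at 8 weeks of age and were given daily for 35 days in a volume of 100 µl. The control group of 3 mice received DPBS, a buffered saline used as vehicle, and the treated group of 4 mice received FAPi at 500 µg/kg. FAPi stands for an inhibitor of fibroblast activation protein, a protease of the stromal cell surface, and the sources used here do not give its identity. No allele or transgene is named for either group. Each library came from 7000 live limb bone cells with Pdgfra and without CD45, Ter119 or Tie2 at the surface, so the values describe the cells of this gate and not whole marrow. Libraries were of a modified Smart-seq2 type and were read as pairs of 150 bases.

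The small subunit reads the messenger RNA and the large subunit joins the amino acids, and each needs its proteins in nearly equal amounts. Messages for ribosomal proteins begin at the cap with a run of C and T bases (C and U in the RNA), the terminal oligopyrimidine or TOP motif, through which the kinase mTOR and the RNA-binding protein Larp1 set how well they are translated. A few of the proteins act outside the ribosome, such as Rpl5 and Rpl11, which bind the p53 regulator Mdm2 when they are not built into a subunit. In bone marrow, mutations in genes such as RPS19, RPS26 and RPL5 cause Diamond-Blackfan anaemia, a failure of red cell formation.

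The stretch around the transcription start is shown for members that lead the comparison below, because it holds the feature that these genes are best known to share. The RefSeq table used here (build GRCm38.p6) listed 75 starts for 63 members and no start for the other 20. Each line gives 30 bases on the transcribed strand, 10 before the start and 20 from the start on, with the longest run of C and T in capitals. Rps26, Rpl38, Rps28, Rpl41 and Rps23 have the smallest p-values toward lower levels in FAPi cells, and Rpl5 the smallest toward higher levels. Rps6 and Rplp2 each have 1 FAPi library that stands apart, and Rps27 is the most abundant small-subunit member per kilobase. The windows lie at chr10:128626487-128626516 on the minus strand for Rps26, at chr11:114668570-114668599 on the plus strand for Rpl38 and at chr17:33824543-33824572 on the minus strand for Rps28. They lie at chr10:128549149-128549178 on the minus strand for Rpl41, at chr13:90923112-90923141 on the plus strand for Rps23 and at chr5:107900518-107900547 on the plus strand for Rpl5. They lie at chr4:86857348-86857377 on the minus strand for Rps6, at chr7:141447641-141447670 on the plus strand for Rplp2 and at chr3:90213629-90213658 on the minus strand for Rps27.
Rps26: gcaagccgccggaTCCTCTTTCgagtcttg
Rpl38: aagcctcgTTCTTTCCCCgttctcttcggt
Rps28: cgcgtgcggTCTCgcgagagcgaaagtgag
Rpl41: gggccggCTCggaagtgacgacaccgagca
Rps23: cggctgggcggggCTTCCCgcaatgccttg
Rpl5: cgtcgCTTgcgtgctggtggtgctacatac
Rps6: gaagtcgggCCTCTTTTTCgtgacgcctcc
Rplp2: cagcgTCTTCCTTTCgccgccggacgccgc
Rps27: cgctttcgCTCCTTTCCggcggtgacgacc
The runs of Rps26, Rpl38, Rps6, Rplp2 and Rps27 were 9, 10, 10, 10 and 9 bases long. Those of Rps28, Rpl41, Rps23 and Rpl5 were 4, 3, 6 and 3 bases long, so the members with the smallest p-values did not all have a long run in this window. A marked run could lie anywhere in the window. The runs of Rpl41 and Rpl5 lay wholly before the listed start, and those of Rps26 and Rps23 began a few bases after it. These lengths therefore do not measure the TOP motif at the cap.

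A run of at least 8 bases of C and T stood in the 30-base window at 24 of the 75 member starts (32.0%) and at 11.2% of all 32851 starts in the table. The letters CTTTC, which can lie inside such a run, stood in this window on the transcribed strand at 15 of the 75 member starts and at 3.7% of all. Other motifs were searched on both strands in the 300 bases from 250 before to 50 after the start. CCGGAAG, the core letters bound by ETS factors, stood at 36.0% of member starts against 8.9% of all, and GGGCGG, the GC box, at 45 of the 75 against 35.7%. TATAAA, the letters of a TATA box, stood at 9.3% against 13.6%. The tested members with a run of at least 8 bases (24 genes) had a median log2 difference between FAPi and DPBS of -0.30, with a lower estimate in 23. The 37 tested members with a listed start and no such run had a median of -0.24, with a lower estimate in 27. Without DPBS replicate 2 these medians were -0.20 and -0.12. These matches describe the letters of the windows, and no binding was measured. A run could lie anywhere in its window, before the start as well, so the run counts do not measure TOP motifs at the cap.

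Libraries held 7492570 to 10569690 gene counts, and the 12930 genes with enough counts were tested with edgeR's quasi-likelihood test on the counts. The stromal markers of the gate were abundant: 12 genes, among them Pdgfra, Cxcl12 and Lepr, summed to 79860 to 92390 CPM (counts scaled to a fixed library total) in DPBS and 92970 to 95870 in FAPi libraries. CPM values here are scaled by trimmed-mean (TMM) factors of edgeR. DPBS replicate 2 had the highest summed level of erythroid, neutrophil and proliferation genes. Its 14 erythroid markers with a row in the tables, which include the globins, summed to 16090 CPM, against 6603 and 1944 in DPBS replicates 1 and 3 and 1675 to 3419 in FAPi libraries. None of these 14 was at 0 in all libraries, and Alas2, the first enzyme of erythroid heme synthesis, was at 0 in FAPi replicate 4. Neutrophil markers (15 genes) summed to 2887 CPM there, against 1858 and 677 in the other DPBS libraries and 201 to 652 in FAPi libraries, and 25 proliferation genes to 2043 CPM against 453 to 963 in all other libraries. Other libraries led for other lists. FAPi replicate 1 had the highest sum for B cell markers (1461 CPM, against 1335 in DPBS replicate 2 and 659 to 999 elsewhere), pan-leukocyte markers (113 CPM, against 104 in DPBS replicate 2) and endothelial markers (376 CPM, against 28.8 to 157), and DPBS replicate 3 for megakaryocyte markers (508 CPM, against 88.5 to 191). In FAPi replicate 1, Kdr held 340 CPM of the endothelial sum and Rac2 92.4 CPM of the pan-leukocyte sum. Ebf1 held 587.5 to 953.9 CPM of the B cell sum in every library. By mean log2 level of the tested genes, DPBS replicate 2 led for pan-leukocyte markers (3.90 against 2.78 in FAPi replicate 1). DPBS replicate 3 led for endothelial markers (4.1, against 3.31 in FAPi replicate 2, the next, and 2.99 in FAPi replicate 1). FAPi replicate 1 still led for B cell markers (6.25 against 5.84 in DPBS replicate 2). Of 8 T and NK cell markers, 6 were at 0 in every library. Results are therefore given with and without DPBS replicate 2, and the part of admixed cells in them was not tested. In sorted bulk samples, fewer cells of a type and less RNA per cell cannot be told apart.

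Ribosomal protein genes took a small share of the counts, and the share was lower in every FAPi library than in every DPBS library. It was 2.70%, 3.19% and 2.15% in DPBS replicates 1 to 3 and 2.09%, 1.72%, 2.09% and 1.88% in FAPi replicates 1 to 4. DPBS replicate 2 was the highest of the 7, and DPBS replicate 3 was close to FAPi replicates 1 and 3, so the groups were separated by a narrow gap. The Wilson 95% interval was 2.14% to 2.16% for DPBS replicate 3 and 2.08% to 2.10% for FAPi replicate 1, and such intervals cover counting error only. Group means were 2.68% ± 0.519 (SD, n = 3) and 1.95% ± 0.179 (SD, n = 4). Without DPBS replicate 2 the DPBS mean was 2.42%, and the difference shrank from 0.733 to 0.478 percentage points. A share depends on the other genes in the library: Actb, the cytoplasmic actin gene and one of the most abundant, took 3.97% to 5.92% of DPBS and 5.80% to 11.8% of FAPi counts. With the 10 most abundant genes left out of the total, the members' shares were 3.30%, 3.90% and 2.67% in DPBS and 2.62%, 2.26%, 2.63% and 2.41% in FAPi libraries, again without overlap.

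**Figure D1:**
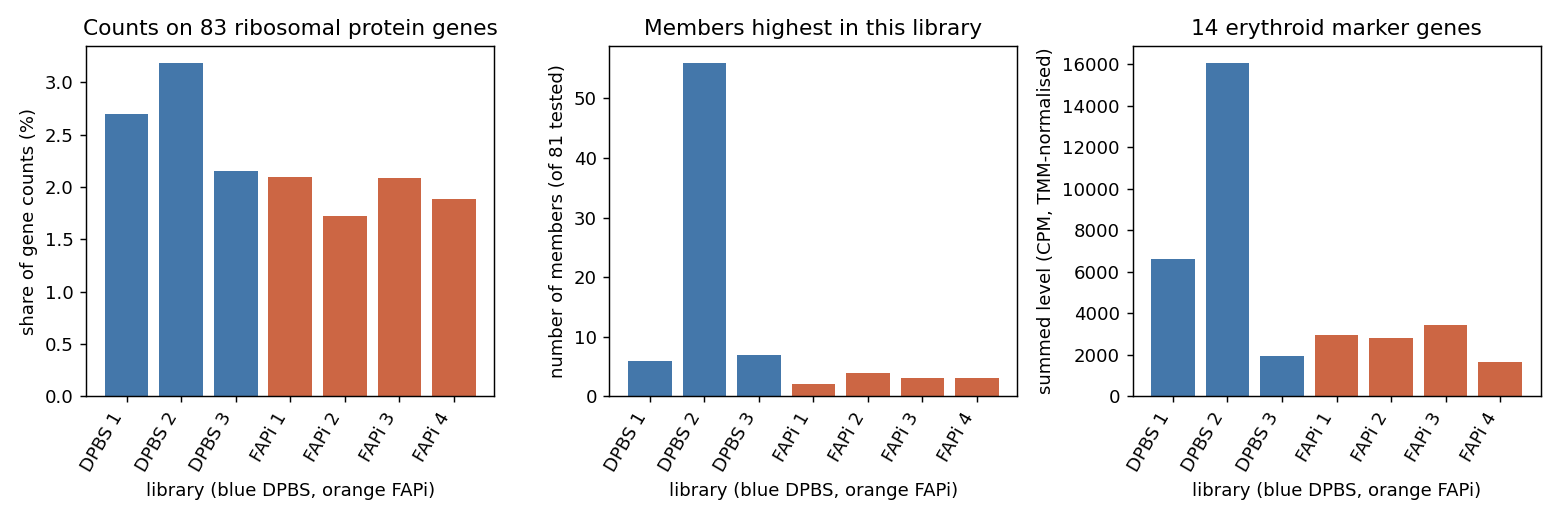
Bars show, for each of the 7 libraries (x axis, 3 DPBS in blue and 4 FAPi in orange), the share of gene counts on the 83 ribosomal protein genes in percent, the number of the 81 tested members whose highest value was in that library, and the summed level of 14 erythroid marker genes in CPM. DPBS replicate 2 holds the highest share, 3.19%, is the highest library for 56 members and has 16090 CPM of erythroid markers.

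DPBS replicate 2 was the highest library for 56 of the 81 tested members (69.1%), while it was the highest for 17.5% of all genes tested. The mean log2 level of the tested members was 7.72, 8.07 and 7.58 in DPBS replicates 1 to 3 and 7.48, 7.49, 7.54 and 7.52 in FAPi replicates 1 to 4. The FAPi libraries were thus close to each other, with an SD of 0.028 against 0.252 among the DPBS libraries, and all 4 lay below the lowest DPBS library. As single genes, members varied less between libraries of a group than the typical gene: the median SD of log2 CPM was 0.33 in DPBS and 0.25 in FAPi libraries for members, and 0.65 and 0.75 for all genes tested. Genes of like level were not compared, so the part of expression level in this was not tested.

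Of the 83 members, 81 passed the filter on low counts, and Rpl3l and Rpl10l, paralogs known from muscle and testis, had a count of 0 in all 7 libraries. A count of 0 allows at most 3 counts, which corresponds to 0.284 to 0.400 CPM before TMM scaling. No tested member passed the adjusted threshold of 0.05 in either direction (background over all genes 0.0% lower and 0.0% higher), and the smallest adjusted p among members was 0.470. edgeR called 0 of 12930 genes and had 1053 at an unadjusted p under 0.05, while DESeq2 called 130, limma voom with sample weights 1 and limma on the deposited CPM 6. None of these tools called a member. In simulated data for this design, edgeR recovered 0% of genes changed 2-fold and 20% of those changed 4-fold. The changed genes were drawn at random from all genes tested, whose typical spread within a group was larger than that of members. These rates therefore do not give the recovery for members. No tested member except Rpl24 had an estimate much beyond 2-fold.

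The estimates themselves lay mostly on the lower side. In FAPi cells 68 of the 81 members had a lower estimate, where 49.4% of all genes tested did, and the median log2 difference was -0.29, where that of all genes was 0.01. Small-subunit members had a median of -0.41 with 29 of 32 lower, and large-subunit members a median of -0.25 with 39 of 49 lower. At an unadjusted p under 0.05, 10 members were lower (background 3.69%) and 0 higher (background 4.45%). They included Rps19, Rps23, Rps26, Rps27, Rps28, Rps29, Rpl32, Rpl38 and Rpl41. Of the 10, 7 belong to the small subunit, and in 8 DPBS replicate 2 was the highest library.

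Without DPBS replicate 2 the lower side still held more members than the higher side, by less. A lower estimate was then found for 59 of 81 members (background 47.1%), with a median of -0.16 against 0.05 for all genes. The median was -0.21 for the small and -0.13 for the large subunit. Those lower at an unadjusted p under 0.05 were 4 (background 2.77%), namely Rpl38, Rps23, Rps26 and Rps28, and 0 were higher (background 2.94%). The smallest adjusted p among members was then 0.843.

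**Figure D2:**
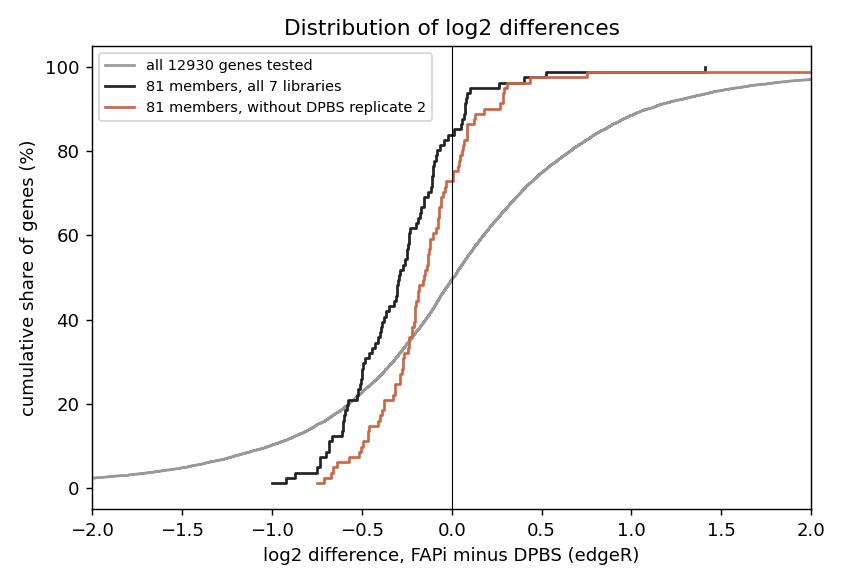
The curves show the cumulative share of genes in percent (y axis) whose log2 difference, FAPi minus DPBS, lies at or below the value on the x axis, for all 12930 genes tested (grey), the 81 members (black) and the 81 members without DPBS replicate 2 (orange). The black curve crosses 0 after 68 of 81 members, the orange curve after 59, and both are steeper than the grey curve; values beyond 2 log2 units on either side are not drawn.

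In 15 members all 4 FAPi values lay below all 3 DPBS values (background 3.95%), and in 0 members they lay above (background 3.39%). They included Rps2, Rps15, Rps19, Rps23, Rps26, Rps28, Rpl7, Rpl14, Rpl21, Rpl27, Rpl35a, Rpl38 and Rpl41, and 8 of the 15 belong to the small subunit. Leaving out DPBS replicate 2 cannot undo a separation, so these 15 genes stayed, and no other member joined them on the lower side. However, 2 control libraries separate from 4 more easily, and the background was then 7.17%. Rpl11, Rpl17 and Rpl29 then lay above without overlap (3 members, background 6.56%).

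Members are short genes, and short genes as a class had lower estimates in these libraries. The principal transcript had a median length of 878 bases in tested members and 3046 bases in other protein-coding genes tested. Among 634 other genes with a transcript of at most 1000 bases, 68.6% had a lower estimate and the median was -0.25, close to that of the members. Among 10545 longer genes these were 48.1% and 0.03. The short genes stood, without DPBS replicate 2, at 57.6% and -0.09. A correction of all genes for length and GC content left a median of -0.18 for the members, with 58 lower. For all genes tested these were 0.023 and 48.4%. As an alternative chosen after seeing the data, DPBS replicate 2 was also left out, which gave -0.06 with 54 lower (all genes 0.076 and 45.5%). With the mean erythroid marker level as a covariate the median was -0.14 with 58 lower (all genes 0.055 and 46.8%).

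**Figure D3:**
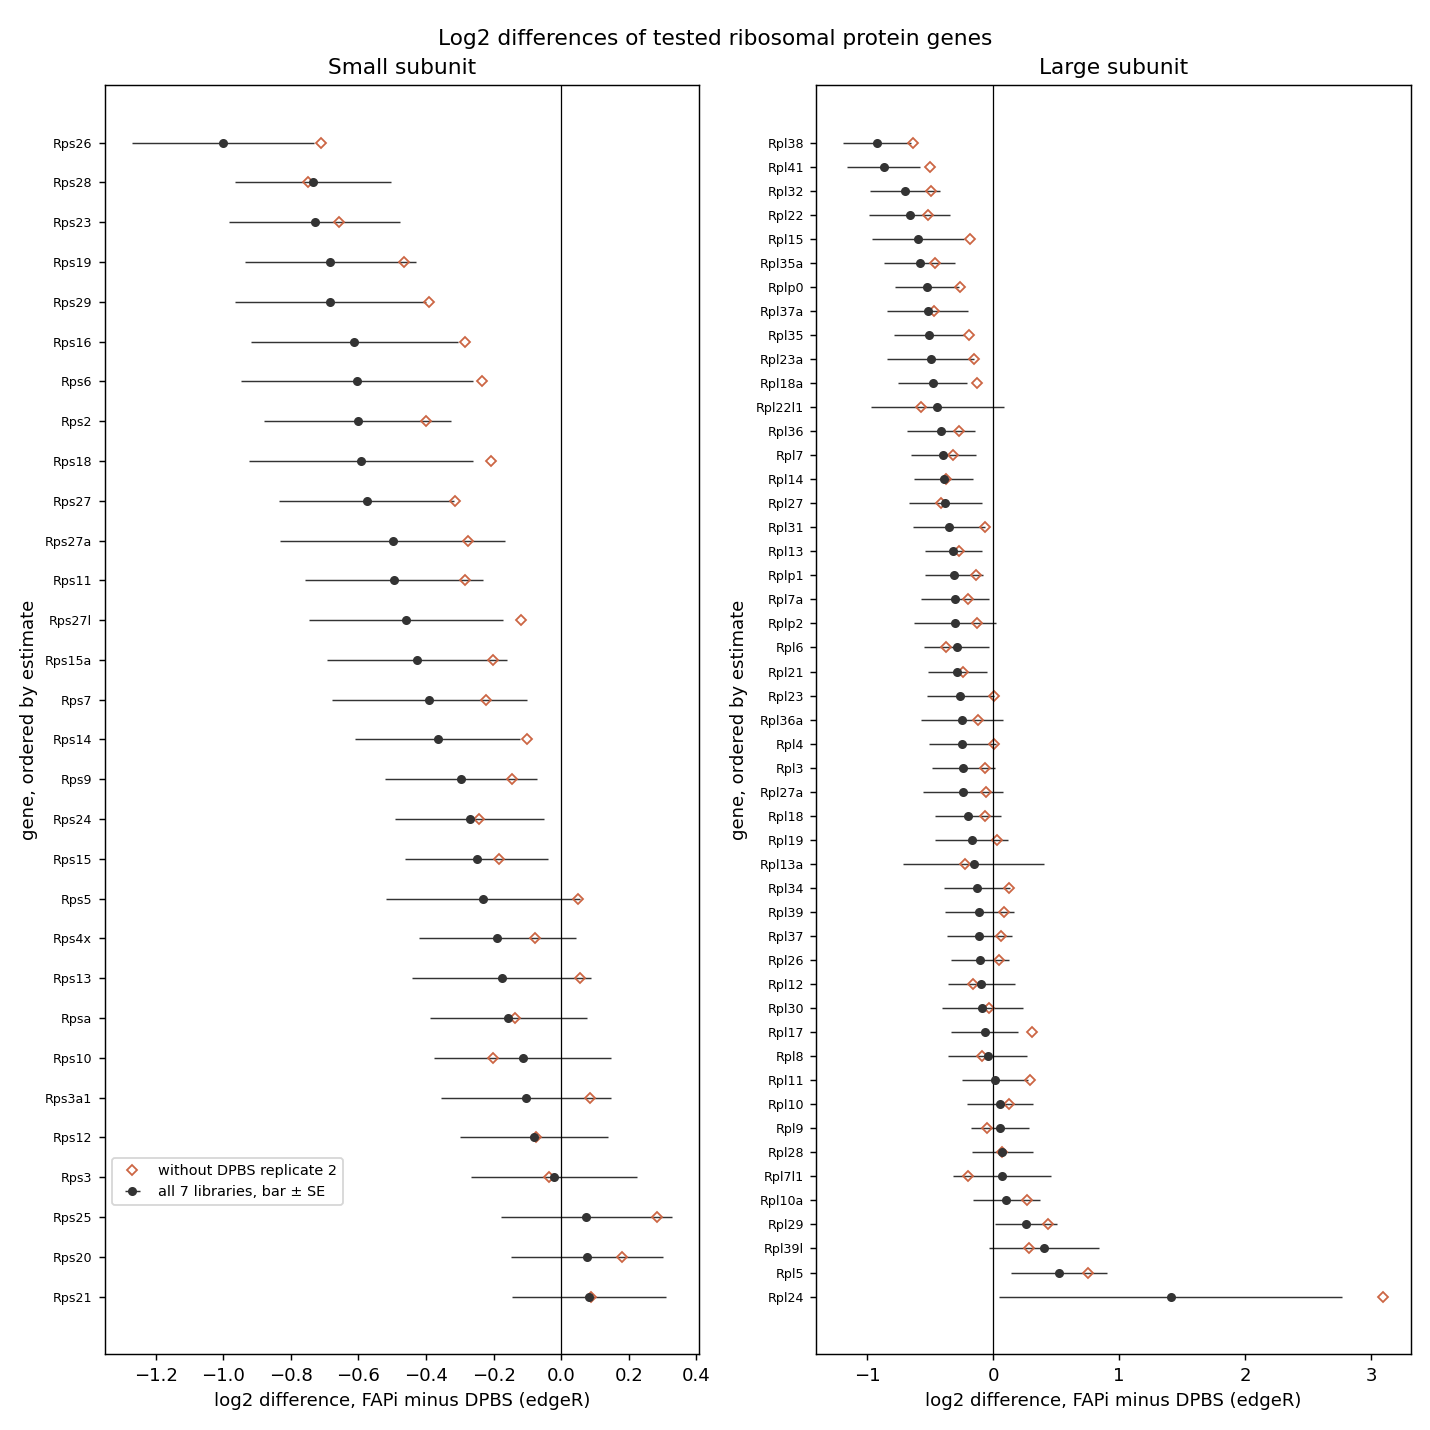
Points give the log2 difference, FAPi minus DPBS (x axis), of tested members of the small subunit (left) and the large subunit (right), ordered by estimate, with bars of 1 standard error from edgeR; open diamonds give the estimate without DPBS replicate 2. The panels have different x ranges. Most points lie below 0, and the diamonds lie nearer to 0 for most genes, while that of Rps28 stayed in place.

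Rps26, a protein at the exit channel for messenger RNA on the small subunit, had the smallest p of all members. Its values were 267, 426 and 244 CPM in DPBS replicates 1 to 3 and 145, 142, 146 and 191 CPM in FAPi replicates 1 to 4. All FAPi values lay below all DPBS values, with DPBS replicate 2 the highest and FAPi replicate 4 the highest of its group. The means of 312 ± 99 CPM and 156 ± 23.3 CPM correspond to a log2 difference of -1.0 (SE 0.27, adjusted p = 0.470 by edgeR), and the estimate without DPBS replicate 2 was -0.71. Rps28, a small protein near the same channel, had an estimate that hardly moved when DPBS replicate 2 was left out. It stood at 231, 233 and 249.7 CPM in the DPBS and at 130.3, 129, 159 and 155 CPM in the FAPi libraries. The 3 DPBS values were nearly equal and the groups lay far apart relative to their spread. The log2 difference was -0.73 (SE 0.23, adjusted p = 0.488) and -0.75 without DPBS replicate 2. Rps28 overlaps Kank3 on the other strand, and the sources used here do not give whether the counting used strand.

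Rps23, which sits at the decoding centre, was measured at 284, 273 and 189 CPM in DPBS and at 160.1, 141, 128 and 170.0 CPM in FAPi libraries. There was no overlap, and DPBS replicate 3 was closest to the FAPi values. The log2 difference was -0.73 (SE 0.25, adjusted p = 0.509) and -0.66 without DPBS replicate 2. Rps19, needed to mature the small subunit's RNA and the gene most often mutated in Diamond-Blackfan anaemia, had 430.0, 613 and 392 CPM against 332, 267, 353 and 239 CPM. DPBS replicate 2 exceeded every other library, and DPBS replicate 3 was the nearest to the highest FAPi library. Its log2 difference was -0.68 (SE 0.25, adjusted p = 0.529) and -0.46 without that library, and 14 -ps rows exist for it, so reads from copies could have been split.

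Rpl38 is a small large-subunit protein known for its part in translating Hox messages in the embryo. It was found at 334, 479.8 and 248 CPM in DPBS and at 171, 208, 194 and 175 CPM in FAPi libraries. FAPi values all lay below the DPBS values, and the DPBS libraries spread over a wider range than the distance between the group means. The means were 354 ± 117 CPM and 187 ± 17.2 CPM, and the log2 difference was -0.92 (SE 0.27, adjusted p = 0.483). It was -0.64 without DPBS replicate 2. Rpl41, a peptide of the large subunit that bridges it to the small one, had 400.4, 653 and 301 CPM against 257, 206, 299 and 226 CPM. DPBS replicate 3 and FAPi replicate 3 were almost equal, so the absence of overlap rested on a gap of 2 CPM. The log2 difference was -0.87 (SE 0.29, adjusted p = 0.490) and -0.51 without DPBS replicate 2.

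**Figure D4:**
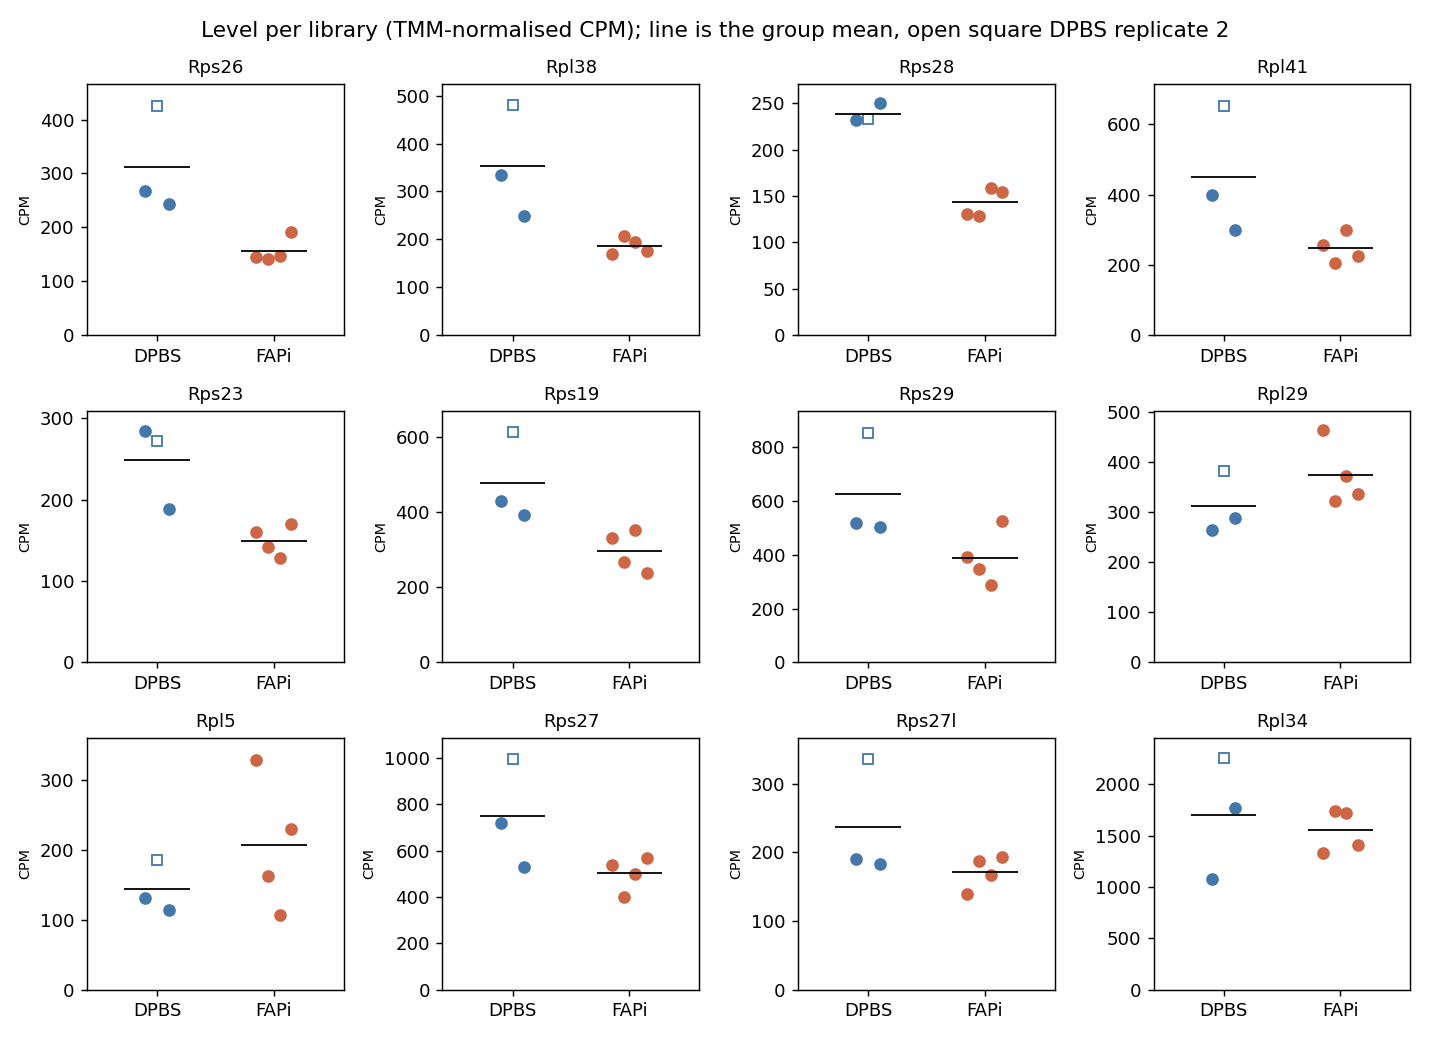
Each panel shows 1 gene, with the level in CPM (TMM-normalised, y axis from 0) of the 3 DPBS and 4 FAPi libraries as points, the group mean as a line and DPBS replicate 2 as an open square. Rps26, Rpl38, Rps28, Rpl41, Rps23 and Rps19 show no overlap between the groups, while Rps29, Rpl29, Rpl5, Rps27, Rps27l and Rpl34 overlap.

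Other members without overlap had smaller differences. Their log2 differences were -0.60 for Rps2, -0.25 for Rps15, -0.40 for Rpl7, -0.39 for Rpl14, -0.29 for Rpl21, -0.38 for Rpl27 and -0.58 for Rpl35a. Without DPBS replicate 2 they were, in the same order, -0.40, -0.185, -0.315, -0.38, -0.24, -0.41 and -0.46. None of these 7 reached an unadjusted p of 0.05, and the smallest was 0.0532, for Rps2. Rpl14 stood at 295, 309 and 302 CPM in DPBS and at 281, 219, 184 and 235 CPM in FAPi libraries, and Rps15 at 306, 342 and 295 CPM against 257, 273, 271 and 255 CPM. Both groups of Rps15 were tight, and a narrow gap separated them. Its estimate of -0.25 moved to 0.03 under the correction for length and GC content.

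The deposited counts carry a label of duplicate removal, which can compress the counts of short, abundant genes, so levels, shares and their order may be affected; the size of this effect was not tested. By level per kilobase of the principal transcript, members spanned from 6.48 to 2586 CPM per kilobase among those tested, with a median of 229. This scale depends on the annotated length, which was 5179 bases for Rps15a, the last of the small subunit at 29.6 CPM per kilobase. In the small subunit Rps27, Rps29 and Rps14 led, with 1760, 1258 and 983 CPM per kilobase. Rpl34, Rpl37 and Rpl17 led the large subunit with 2586, 1180 and 1052. The most abundant members did not share one pattern between groups.

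Rps27, a zinc-finger protein of the small subunit, had 719.5, 994 and 528 CPM in DPBS and 539.5, 399.7, 498 and 570.0 CPM in FAPi libraries. The groups overlapped between DPBS replicate 3 and FAPi replicates 1 and 4. The log2 difference was -0.58 (SE 0.26, adjusted p = 0.607) and -0.31 without DPBS replicate 2. Rps29, a small zinc-binding protein near the head of the subunit, had 518, 855 and 503 CPM against 394, 349.6, 288 and 526 CPM, with a log2 difference of -0.68 (adjusted p = 0.574) and -0.39 without DPBS replicate 2. FAPi replicate 4 was level with DPBS replicates 1 and 3, and only DPBS replicate 2 was well above. Rps14, the gene tied to the anaemia of the human 5q deletion syndrome, had 807, 1180 and 668 CPM against 765, 677, 720.5 and 586 CPM. The groups overlapped, and the log2 difference of -0.36 became -0.10 without DPBS replicate 2. Its locus overlaps Ndst1 on the other strand.

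Rpl34 stood at 1080, 2252 and 1763 CPM in DPBS and at 1334, 1742, 1719 and 1404 CPM in FAPi libraries. DPBS replicate 1 was the lowest and DPBS replicate 2 the highest of all 7. The log2 difference was -0.13 (SE 0.26) and turned to 0.12 without DPBS replicate 2. Rpl37 had 821, 1263 and 1003 CPM against 861, 1179, 1103 and 667 CPM, and Rpl17, at the rim of the exit tunnel for the new protein, had 1242, 2088 and 967 CPM against 1370, 1327, 1490 and 1281 CPM. FAPi replicate 4 was the lowest library for Rpl37, and the other FAPi values of both genes lay inside the DPBS range. Their log2 differences of -0.11 and -0.07 turned to 0.06 and 0.31 without DPBS replicate 2.

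The stalk of the large subunit, which recruits the elongation factors, is formed by Rplp0 with Rplp1 and Rplp2. Rplp0 had 360.4, 524 and 296 CPM in DPBS and 261, 239, 284 and 311 CPM in FAPi libraries. The groups overlapped only between DPBS replicate 3 and FAPi replicate 4, and the log2 difference was -0.53 (SE 0.26, adjusted p = 0.638) and -0.26 without DPBS replicate 2. Rplp1 had 369, 494 and 340.4 CPM against 344, 282, 339.7 and 329 CPM. DPBS replicate 2 was well above the rest, FAPi replicate 1 exceeded DPBS replicate 3, and the log2 difference of -0.31 became -0.13 without it. Rplp2 had 273, 286 and 141 CPM against 172, 276, 156 and 152 CPM. One library of each group broke from the others, DPBS replicate 3 on the low and FAPi replicate 2 on the high side. The log2 difference was -0.30 (SE 0.33) and -0.13 without DPBS replicate 2.

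Several members have a paralog that can replace them. Rps27 and Rps27l, the latter known as a p53 target, were both found: Rps27l had 191, 336 and 182 CPM in DPBS and 139, 188, 167 and 194 CPM in FAPi libraries. Except for DPBS replicate 2 the Rps27l values of the groups lay in the same range, and the log2 difference of -0.46 became -0.12 without it. Rpl22, an RNA-binding protein of the large subunit, had 89.5, 106 and 69.9 CPM against 72.3, 49.0, 55.9 and 45.9 CPM. FAPi replicate 1 exceeded DPBS replicate 3, and the others were separated, with a log2 difference of -0.66 (SE 0.32, adjusted p = 0.630) and -0.51 without DPBS replicate 2. Its paralog Rpl22l1 had 77.4, 65.6 and 98.6 CPM against 40.8, 52.2, 124 and 19.7 CPM. The FAPi libraries held both the highest and the lowest value of Rpl22l1, and its log2 difference was -0.44 (SE 0.53) and -0.57 without DPBS replicate 2. It overlaps Gm33051 on the other strand.

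Rpl39 lines the exit tunnel, and Rpl39l is a paralog known from the testis. Rpl39 had 137, 182 and 117 CPM in DPBS and 109.6, 136, 159.8 and 133 CPM in FAPi libraries, and Rpl39l 32.1, 20.7 and 22.4 CPM against 27.5, 49.4, 20.7 and 35.0 CPM. The groups overlapped in both genes. The log2 differences were -0.11 for Rpl39 (0.09 without DPBS replicate 2) and 0.40 for Rpl39l (SE 0.43, adjusted p = 0.864, and 0.28 without DPBS replicate 2). Per kilobase, Rpl39 stood at 227 CPM and Rpl39l at 36.9 CPM.

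Rpl3, which reaches the peptidyl transferase centre, had 247, 311 and 202 CPM in DPBS and 209.6, 204, 262 and 184 CPM in FAPi libraries, and Rpl10, which joins the large subunit late in its maturation, had 239.8, 305 and 286 CPM against 269.9, 228, 247 and 404 CPM. Both overlapped, with log2 differences of -0.24 and 0.05, and of -0.06 and 0.13 without DPBS replicate 2. Their tissue-restricted paralogs Rpl3l and Rpl10l are the members with no counts. Rpl7 had 161, 193 and 168 CPM against 123, 149.5, 152 and 104 CPM, and its relative Rpl7l1 had 67.9, 28.9 and 52.0 CPM against 55.7, 39.0, 47.9 and 66.2 CPM. Rpl7 was lower in every FAPi library. Rpl7l1, in contrast to most members, was lowest in DPBS replicate 2, and its log2 difference of 0.07 became -0.20 without that library. Reads of Rpl7l1 may include Gm26904, which overlaps on the other strand.

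Members with a separate role gave mixed values. Rps6, the target of the S6 kinases downstream of mTOR, had 75.5, 129 and 61.9 CPM in DPBS and 45.6, 64.0, 62.8 and 61.3 CPM in FAPi libraries. FAPi replicate 1 was the lowest, the other FAPi libraries were close to DPBS replicate 3, and the log2 difference of -0.60 (SE 0.34) became -0.24 without DPBS replicate 2. Rpl5 and Rpl11, the pair that binds Mdm2, were not on the lower side. Rpl5 had 132, 186 and 114 CPM against 329, 162, 107 and 230.2 CPM. Its FAPi values ranged more widely than its DPBS values and overlapped them, with a log2 difference of 0.52 (SE 0.38, adjusted p = 0.764) and 0.75 without DPBS replicate 2. Rpl11 had 222, 358 and 214 CPM against 232, 281, 303 and 254 CPM. FAPi values lay between DPBS replicate 2 and the other DPBS libraries, and the log2 difference of 0.01 became 0.29 without DPBS replicate 2. Rpsa, also known as the laminin receptor, had 274, 253 and 212 CPM against 224, 183, 237 and 239 CPM. Its groups overlapped, and the log2 difference was -0.16 (SE 0.23) and -0.14 without DPBS replicate 2. Rpl5 holds small nucleolar RNA genes on its own strand and overlaps Fam69a on the other.

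On the higher side lay 13 members: Rps20, Rps21, Rps25, Rpl5, Rpl7l1, Rpl9, Rpl10, Rpl10a, Rpl11, Rpl24, Rpl28, Rpl29 and Rpl39l. Rpl29, a heparin-binding protein of the large subunit, had 264, 383 and 288 CPM in DPBS and 465, 324, 372 and 337 CPM in FAPi libraries. Only DPBS replicate 2 lay within the FAPi range, and the log2 difference was 0.26 (SE 0.24, adjusted p = 0.834) and 0.44 without it. Rpl10a had 148, 180.4 and 115 CPM against 131, 163, 179 and 162 CPM. Its groups overlapped, with a log2 difference of 0.10 that turned to -0.08 when libraries were scaled by total counts and was 0.27 without DPBS replicate 2.

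Rpl24 and Rpl13a had the lowest levels per kilobase among the tested members, 6.48 and 13.6 CPM per kilobase, next to 19.6 for Rpl7l1. Rpl24 had 9, 51 and 6 counts in DPBS and 6, 17, 9 and 143 counts in FAPi libraries, which is 0.81, 5.39 and 0.57 CPM against 0.75, 2.20, 1.05 and 19.96 CPM. FAPi replicate 4 held most of these counts, and the log2 difference of 1.41 (SE 1.36) passed the adjusted threshold in no fit and turned to -0.73 without that library. Without DPBS replicate 2 the log2 difference was 3.10. Gm28037 overlaps Rpl24 on the same strand. Rpl13a had 7.08, 13.7 and 24.6 CPM against 11.1, 10.3, 16.9 and 16.1 CPM, and it shares its strand with Gm45713 and several small nucleolar RNA genes. Whether reads shared by overlapping genes or by copies were dropped in counting was not tested, so the levels of such members may be incomplete. Over all members, 33 overlap another gene on the same strand and 22 one on the other strand. The tables hold 297 -ps rows, 180 with a count in any library, and 23 members have no -ps row. Pseudogene copies under other symbols were not counted, so these numbers may leave out part of the copies. Counts on -ps rows were 1.96 to 2.25 per 100 member counts in DPBS and 1.90 to 2.46 in FAPi libraries.

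Members were also compared on a scale relative to each other, with each value set against the mean log2 level of the tested members in its own library. On this scale Rps26, Rpl38, Rps28, Rps23 and Rps19 were lower in every FAPi library than in every DPBS library, by -0.68, -0.59, -0.46, -0.43 and -0.39 on average (5 members, where 1.76% of all genes tested were lower without overlap on the same scale). Rps20, Rps25, Rpl10a and Rpl29 were higher without overlap, by 0.37, 0.38, 0.40 and 0.55 (4 members, background 7.13%), a share of the members below that background. The other 72 overlapped. Leaving out a library cannot undo a separation, so these 9 stayed separate without DPBS replicate 2. Then 6 members were lower (background 4.91%) and 7 higher (background 9.79%), with Rpl11, Rpl17 and Rpl24 joining the higher side. This scale describes unequal differences among members and does not show that any member was unchanged.

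**Figure D5:**
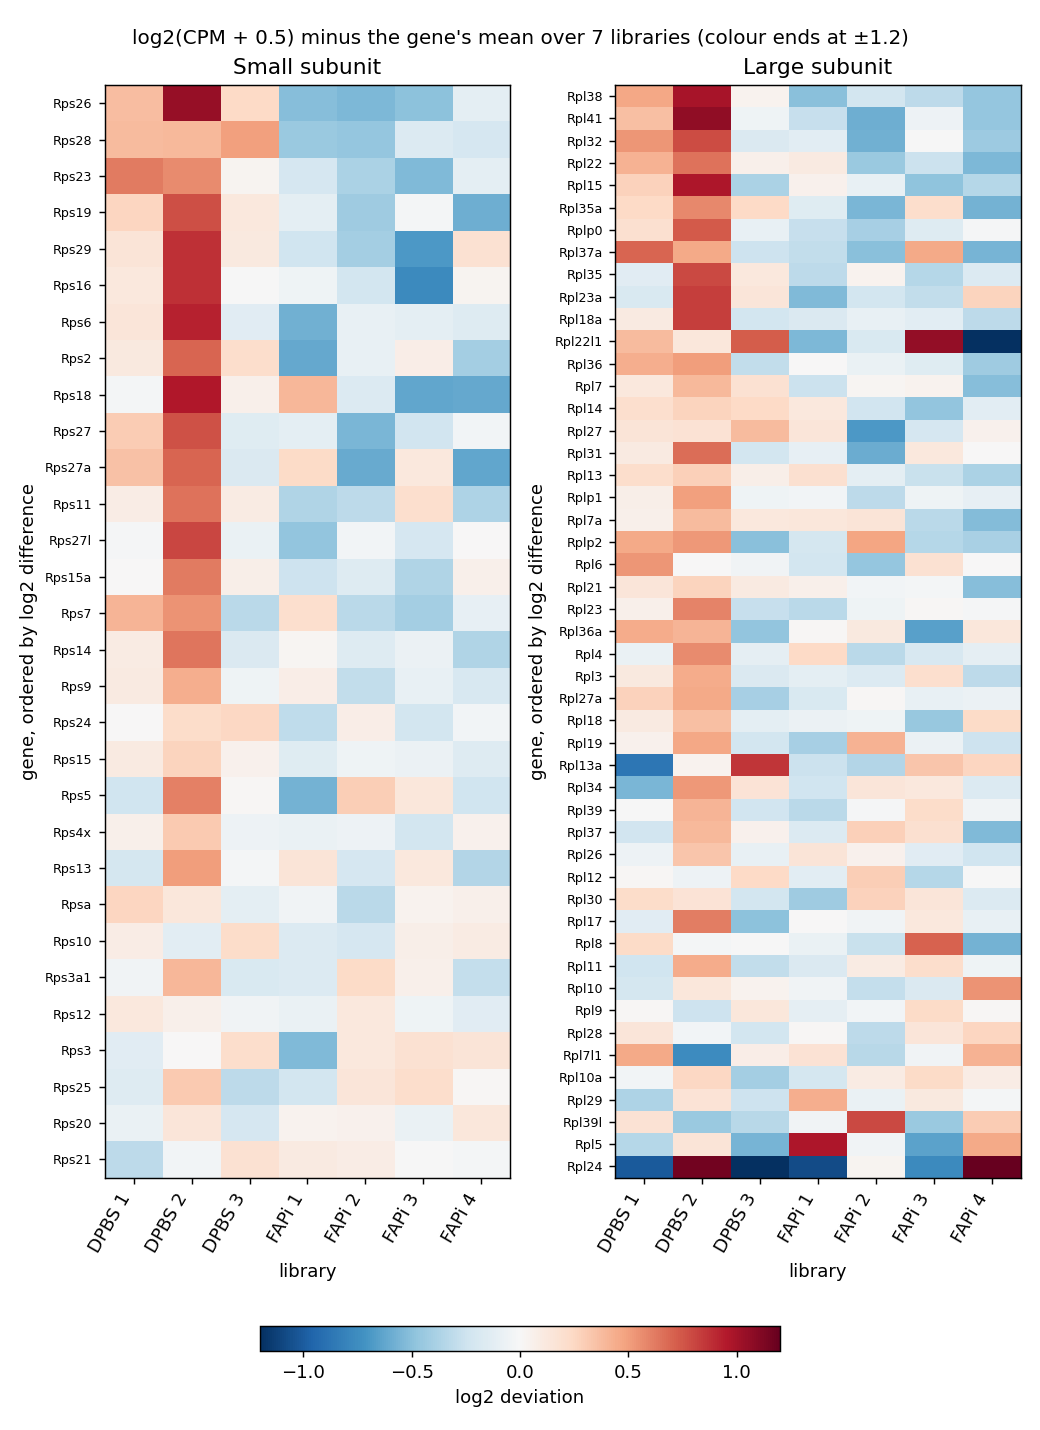
Colours give log2(CPM + 0.5) minus the gene's mean over the 7 libraries for tested members of the small (left) and large (right) subunit, with genes ordered by log2 difference from lowest (top) to highest (bottom), libraries on the x axis and colours ending at 1.2 in either direction. The column of DPBS replicate 2 is red for most genes and is the highest library for 56 members, and Rps28 and Rps26 are red in all 3 DPBS columns.

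Fau and Rack1 are ribosomal proteins that the naming rule leaves out. Both had a lower estimate, with log2 differences of -0.57 and -0.05, and neither was called. Fau, which is made as a fusion with a ubiquitin-like protein, had 234, 292 and 142 CPM in DPBS and 182, 110.0, 170.3 and 137 CPM in FAPi libraries, with overlap. The mitochondrial ribosome, built from its own set of nuclear genes, had 75 tested members, of which 48 lay on the lower side, with a median of -0.17, and 0 were called, against -0.29 for the cytosolic genes. Mrps11 and Mrpl3 had the smallest p-values toward lower levels, with log2 differences of -1.14 (adjusted p = 0.529) and -1.43 (adjusted p = 0.529). Mrpl32 and Mrpl24 had the smallest toward higher levels, with 1.2 (adjusted p = 0.485) and 2.72 (adjusted p = 0.501). After DPBS replicate 2 was left out, 41 of the 75 had a lower estimate and the median was -0.05.

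Among factors that work with the ribosome, edgeR called none. Among 9 tested elongation genes 8 lay on the lower side and the median was -0.24, but Eef1a1 and Eef2, which carry tRNAs to the ribosome and move it along, had log2 differences of 0.05 and -0.06. With DPBS replicate 2 left out, 7 of the elongation genes were lower and the median was -0.12. Of 37 initiation genes 22 lay on the lower side, and their median was -0.14. This median was -0.02, with 20 lower, without DPBS replicate 2. Eif3j1, a loosely bound part of initiation factor 3, had 25.5, 31.5 and 68.0 CPM against 17.7, 15.2, 18.1 and 10.9 CPM. All FAPi values lay below the DPBS values, with a log2 difference of -1.43 (adjusted p = 0.490) and -1.59 without DPBS replicate 2. Other messages known to carry a TOP motif, 18 in all and partly the same genes, had 13 lower estimates and a median of -0.18. These were 12 and -0.14 without DPBS replicate 2. Tmsb4x, which binds actin monomers, had 1377, 1358 and 1362 CPM in DPBS and 1078, 917, 1017 and 1090 CPM in FAPi libraries, with a log2 difference of -0.41 (adjusted p = 0.615) and -0.42 without DPBS replicate 2. Impdh2, an enzyme of guanine nucleotide synthesis, had a log2 difference of -1.55 (SE 0.59, adjusted p = 0.543) and -1.70 without DPBS replicate 2.

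Ribosome assembly genes did not lean to either side: 24 of 50 had a lower estimate and the median was 0.00. Without DPBS replicate 2 these were 25 and 0.01. Nucleolin (Ncl) and fibrillarin (Fbl), abundant nucleolar proteins, had log2 differences of 0.24 and 0.36. Nhp2, a protein of the RNA-modifying H/ACA particles, had the smallest p with a log2 difference of -1.26 (adjusted p = 0.547). That estimate shrank to -0.47 without DPBS replicate 2, where Nhp2 stood at 113 CPM against 19.5 to 36.2 CPM in the other 6 libraries. Among 20 genes of mTOR signalling and ribosomal protein control, 12 had a lower estimate and the median was -0.19. These were 12 and -0.07 without DPBS replicate 2. Eif4ebp2, a repressor of cap-dependent initiation that mTOR inhibits, had 46.8, 104 and 47.4 CPM against 23.6, 29.9, 22.2 and 36.2 CPM. Its groups did not overlap, with a log2 difference of -1.24 (SE 0.41, adjusted p = 0.490) and -0.75 without DPBS replicate 2. Myc, which promotes transcription of ribosomal genes, had 74.8, 86.9 and 103 CPM against 142, 110.2, 231 and 115 CPM. Every FAPi value of Myc lay above every DPBS value, opposite to most ribosomal protein genes, with a log2 difference of 0.76 (SE 0.33, adjusted p = 0.582) and 0.75 without DPBS replicate 2. Mtor and Larp1 had log2 differences of -0.33 and -0.24, within 1 SE of 0. Of 9 tested genes around free ribosomal proteins and p53, 6 had a lower estimate, and Mdm2, Cdkn1a and Trp53 had log2 differences of 0.05, -0.20 and -0.39. The median of these 9 was -0.26, and -0.35 with 7 lower when DPBS replicate 2 was left out.

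Marker lists of other cells differed in direction. In FAPi libraries 13 of 14 erythroid markers had a lower estimate, the median being -1.21, and 23 of 24 tested proliferation genes with a median of -0.73. With 6 libraries, DPBS replicate 2 left out, these medians were -0.57 and -0.07. Neutrophil markers had 12 of 13 tested genes lower with a median of -1.58, which was -0.999 with DPBS replicate 2 left out, and 5 tested megakaryocyte markers had medians of -0.82 and -0.92. The 9 tested B cell markers had 5 lower with a median of -0.15, and 0 lower with a median of 1.41 when DPBS replicate 2 was left out. FAPi replicate 1 bears on this: the mean log2 level of these markers was 6.25 there, against 2.99 to 3.56 in the other FAPi libraries. It was 3.3 and 2.89 in DPBS replicates 1 and 3. Endothelial markers had 3 of 7 lower with a median of 0.11, then 4 of 7 with -0.37. Of 3 tested monocyte and macrophage markers 2 were lower, with medians of -1.04 and then -0.51, and of 5 pan-leukocyte markers 3, with medians of -0.73 and then -0.02. Outside the members, the 5 genes whose log2 level over the 7 libraries was most like the members' mean, of 12849 searched, were Arhgap24, Gmnn, AA543186, Atp6v1a and Gm8730. AA543186 is annotated as a long non-coding RNA and Gm8730 as a processed pseudogene. Pearson's r was 0.988 for Arhgap24, a Rac-directed GTPase activator, and 0.987 for Gmnn, which holds back DNA replication licensing, and it was 0.967 to 0.975 for the other three. All 5 were highest in DPBS replicate 2, and without it r was 0.974 for Arhgap24 and 0.869 to 0.964 for the others. These values describe 7 libraries, and 1 high library bears on each of them.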

How the data were processed

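The submitters' processing notes name STAR, HTSeq and the build mm10, without versions, and the sources used here do not give the annotation or the strand setting. The authors deposited a table of read counts per gene for each library, whose name carries a duplicate-removal tag, and a CPM table, whose values equal count over total to within 4.55e-05 CPM. At the end of 6 of the deposited CPM tables, between 2319 and 2341 lines are repeated, and only a gene's first line was read. Of 53801 gene IDs, 53620 matched GENCODE M21, the source of symbols and transcript lengths. Start sequences and their coordinates come from RefSeq (GRCm38.p6, the same build).

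Tests on the counts used edgeR 4.0.16 under R 4.3.3 (filterByExpr with a minimum count of 10, TMM, robust glmQLFit and glmQLFTest, Benjamini-Hochberg adjustment over 12930 genes, threshold 0.05). A standard error is the absolute log2 difference over the square root of F. Alternatives were other scalings and filters, a replicate block, an erythroid covariate, a loess correction for length and GC content (span 0.3), each library left out, DESeq2 1.42.0, limma 3.58.1 voom, and limma on log2(deposited CPM + 1) or + 0.5. In simulated data on 12930 genes, edgeR recovered 0%, 20%, 60% and 80% of genes changed 2-, 4-, 8- and 16-fold, 50 genes each, and called 6 unchanged genes.

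Total counts were 9463677, 9228260 and 10569690 in DPBS and 7754197, 9226841, 8850004 and 7492570 in FAPi libraries. Reads without molecular identifiers are not independent molecules, so intervals and floors cover counting error only. The members, lists and tests were chosen with earlier results of these data known. Values in every library were given for the most abundant members (3 per subunit), the 5 smallest p-values per direction, paralog pairs, the stalk and members with separate roles; those without overlap were named. Up to 4 genes per list were allowed by p; Eef1a1, Eef2, Ncl, Fbl, Mtor, Larp1, Mdm2, Cdkn1a, Rpl13a, Rpl14 and Rps15 were added after their values were seen. Some genes that the rule named are not reported here.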

Additional observations from a re-analysis of the deposited data

Results flagged for a closer look

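In 4 of the 42 member values checked, 1 of the 4 FAPi libraries lay farther from the others than Dixon's 95% limit allows, where chance gives about 1 in 20. Rps26 was highest in FAPi replicate 4 at 190.8 CPM, with the other 3 libraries at 142 to 146 CPM, a gap of 0.903 of the range. That value still lay below every DPBS library. Rpl24 was highest in the same library at 19.96 CPM, against 0.75 to 2.20 CPM (gap 0.925), and rests on 143 counts there. Rplp2 was highest in FAPi replicate 2 at 275.8 CPM, against 152 to 172 CPM (gap 0.842). Rps6 was lowest in FAPi replicate 1 at 45.57 CPM, against 61.3 to 64.0 CPM (gap 0.854). The 4 values come from 3 libraries, and their causes were not tested.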

How the results depend on the processing

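No member was called under any of the 20 alternatives. The members' median of -0.291 lay at -0.46 with total counts only and at -0.46 and -0.461 with limma on the deposited CPM (pseudocount 1 and 0.5), which use no composition scaling and where the median of all genes was -0.164, -0.17 and -0.178. It was -0.062 without DPBS replicate 2 and with length and GC correction, where the median of all genes was 0.076. Leaving out 1 library at a time gave -0.375 to -0.156, with 59 to 70 members lower and a share difference of -0.997 to -0.478 percentage points.

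At an unadjusted p under 0.05, 10 members were lower, and each share in parentheses is that of all genes tested (3.69% here). The 10 became 25 with total counts (5.73%) and 20 and 20 with limma on the deposited CPM (4.71% and 4.695%). They became 6 with the replicate block (2.03%) and 3 with the erythroid covariate (2.60%). With length and GC correction they were 6 (3.48%), and 2 when DPBS replicate 2 was also left out (2.59%). DESeq2 gave 5 (3.635%). Leaving out 1 library gave 4 to 17, with 4 without DPBS replicate 2 (2.77%) and 17 without DPBS replicate 3 (3.57%). Over all genes, 0 calls became 6 with no low-count filter, 130 with DESeq2, 1 with voom weights, 6 and 6 with limma on the deposited CPM, and 0 to 3 with 1 library left out. The labels do not say whether same-numbered libraries form pairs. Deviations of same-numbered libraries correlated at -0.008, -0.018 and -0.051, which cannot exclude a weak shared effect, and the block changed no call.

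The sign of small estimates turned in these settings; the cause was not tested. With total counts only: Rpl10a -0.081, Rpl10 -0.11, Rpl7l1 -0.12 and Rpl11 -0.16; with limma on the deposited CPM -0.057, -0.15, -0.043 and -0.13 at either pseudocount; with upper-quartile factors Rpl11 -0.014. With the replicate block: Rpl37 0.036, Rpl17 0.039, Rpl24 -0.21 and Rpl10 -0.15. With the erythroid covariate: Rpl37 0.074, Rpl17 0.33, Rpl39 0.12, Rpl3 0.024, Rplp2 0.12, Rpl10 -0.10 and Rpl7l1 -0.21. With length and GC correction: Rpl37 0.043, Rpl17 0.045, Rpl39 0.017 and Rps15 0.031; without DPBS replicate 2 as well, Rpl34 0.18, Rpl37 0.14, Rpl17 0.38, Rpl39 0.15, Rplp1 0.087, Rps15 0.055 and Rpl7l1 -0.16. With voom weights: Rpl34 0.044, Rpl17 0.058 and Rpl7l1 -0.004. With 1 library left out the ranges were -0.37 to 0.12 for Rpl34, -0.25 to 0.063 for Rpl37, -0.28 to 0.31 for Rpl17, -0.73 to 3.10 for Rpl24, -0.051 to 0.27 for Rpl10a, -0.25 to 0.086 for Rpl39, -0.15 to 0.14 for Rpl10, -0.20 to 0.37 for Rpl7l1 and -0.12 to 0.29 for Rpl11. Depth limits Rpl24 alone among the tested members, at 6 to 143 counts.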
